A study of Mus musculus with 4 samples.

Results

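The late cornified envelope group 1 (Lce1) genes were examined in mouse dorsal skin, through every probe set of the array whose gene symbol in the platform annotation is Lce1a1, Lce1a2, Lce1b, Lce1c, Lce1d, Lce1f, Lce1g, Lce1h, Lce1i or Lce1m. These are 10 of the 18194 genes that the annotation names alone on a probe set, and they were read by 12 of the 45101 probe sets, since Lce1a1 and Lce1f have 2 each. Messenger RNA was measured on single-colour Affymetrix arrays in skin at postnatal day 16, in 2 wild type mice and 2 bitransgenic mice that overexpress deltaNp63alpha, the p63 isoform without the amino-terminal transactivation domain. Each array held RNA of 1 animal (n = 2 per group throughout), and this small number sets how precise any value can be. The labels name neither the promoter that drives the transgene nor an inducing agent, litter or sex. Whole skin holds many cell types, so fewer cells of a type and less RNA per cell cannot be told apart.

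LCE proteins are small, cysteine-rich and glycine-rich proteins of the cornified envelope, the cross-linked protein shell that replaces the cell membrane of a dying keratinocyte. Transglutaminases attach them to the inner face of a shell first built from other precursors, which is why they are called late. Their genes lie side by side in the epidermal differentiation complex with those of loricrin, involucrin, filaggrin and the small proline-rich proteins, and are switched on in the upper, granular layers of the epidermis. Group 1 is known from undisturbed skin, whereas group 3 is known from wounded and inflamed skin. Separate functions of single group 1 proteins are not well established. The transcription factor p63 is needed to form the epidermis and is most abundant in its basal layer.

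The Lce1 genes did not move as a block. In limma's fit of 13070 genes with Benjamini-Hochberg adjustment, Lce1f, Lce1i and Lce1h rose in bitransgenic skin, Lce1m fell, and 6 did not pass the threshold of 0.05 on the adjusted p. Thus 3 of 10 were called higher, where 0.750% of all genes tested were, and 1 of 10 was called lower, against 1.58% of all genes. Differences are given on the scale of log2(signal + 16), bitransgenic minus wild type. They ran from -3.89 to 3.29 over the 10 genes, with 7 positive and 3 negative values and a median of 0.80, beside a median of 0.0053 over all genes. Both bitransgenic arrays lay above both wild type arrays for 5 of the 10 genes (23.9% of all genes), and below them for 1 (24.9% of all genes). Each of the 3 rises missed the threshold when bitransgenic replicate 1 was left out (adjusted p = 0.054 to 0.206), and 1 passed, that of Lce1f, when bitransgenic replicate 2 was left out (0.0458). Lce1m was called lower with any 1 array left out.

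**Figure D1:**
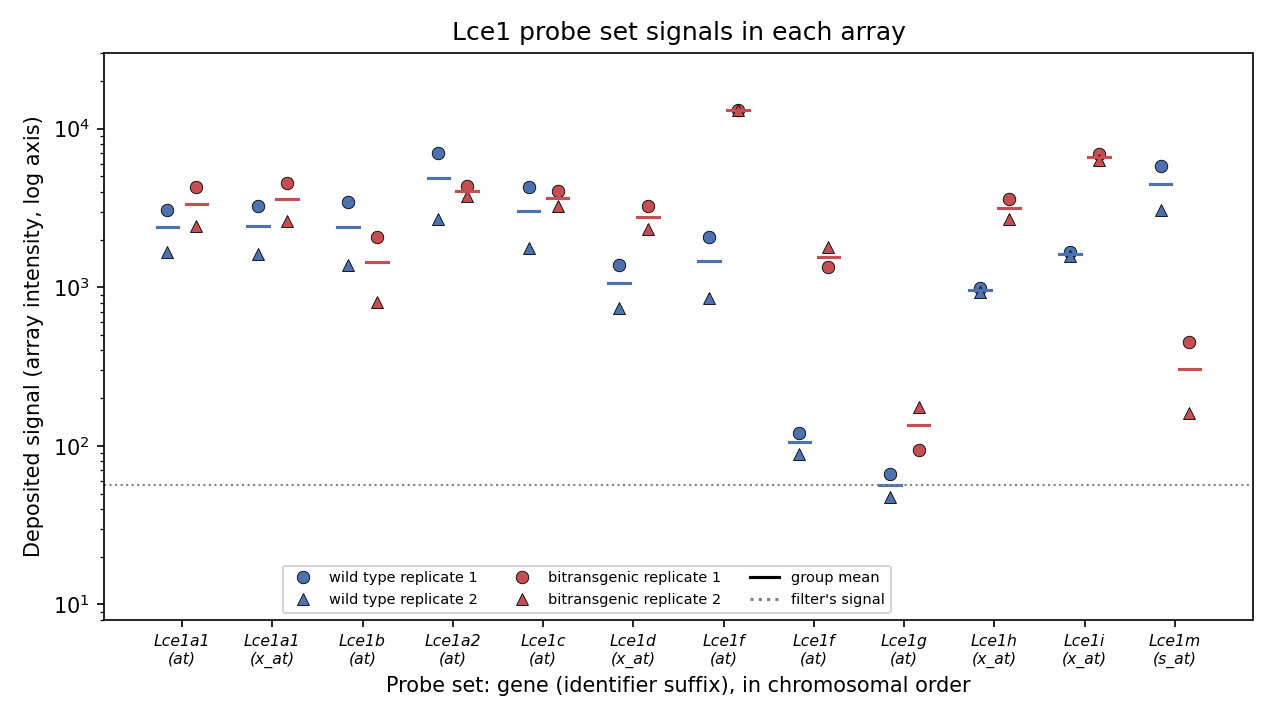
Deposited signal of each of the 12 Lce1 probe sets in every array on a log axis, with wild type in blue and bitransgenic in red, circles for replicate 1, triangles for replicate 2 and short lines for group means; the dotted line is the signal of 57.0 used to filter dim probe sets. The bitransgenic points stand above the wild type points for Lce1d, Lce1f, Lce1g, Lce1h and Lce1i, below them for Lce1m, and among them for the other 4 genes.

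The place of the genes on the chromosome and their promoters are shown first, because the responses differed along the cluster. In the RefSeq gene table for assembly GRCm38.p6, all 10 lie on chromosome 3. The order is Lce1a1, Lce1b, Lce1a2, Lce1c, Lce1d, Lce1f, Lce1g, Lce1h and Lce1i, with Lce1e between Lce1d and Lce1f, while Lce1m stands apart on the far side of the Lce3 genes. The first 4 had differences of 0.59, -0.74, -0.10 and 0.40. The next 5 had differences of 1.43, 3.29, 1.0, 1.69 and 2.02, in that order. Lce1d and Lce1g among these did not pass, and Lce1g was dim. Lce1d, Lce1h and Lce1i were read by _x_at probe sets, some of whose probes can also read similar transcripts. These neighbours may therefore share signal and cannot be taken as separate rises. Among the genes between Lce1i and Lce1m, Lce3a, Lce3c and Lce3f rose, with values of 2.98, 4.87 and 6.92. Their wild type signals all lay below the filter's 57.0, so they were tested only through the bitransgenic arrays and the size of their rise depends on the pseudocount: over the alternatives it ran from 1.89 to 3.95 for Lce3a, 3.87 to 5.50 for Lce3c and 5.57 to 7.98 for Lce3f. The differences of Kprp, Lce3b and Crct1, also in between, were -1.25, -0.043 and -0.70 and did not pass. This split of the cluster was seen in the values and was not tested. Lce1e, Lce1j and Lce1k have no probe set named for them alone, and the probe set of Lce1l was below the filter, with signals of 107.5 and 47.9 in wild type against 92.0 and 4.20 in bitransgenic skin.

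**Figure D2:**
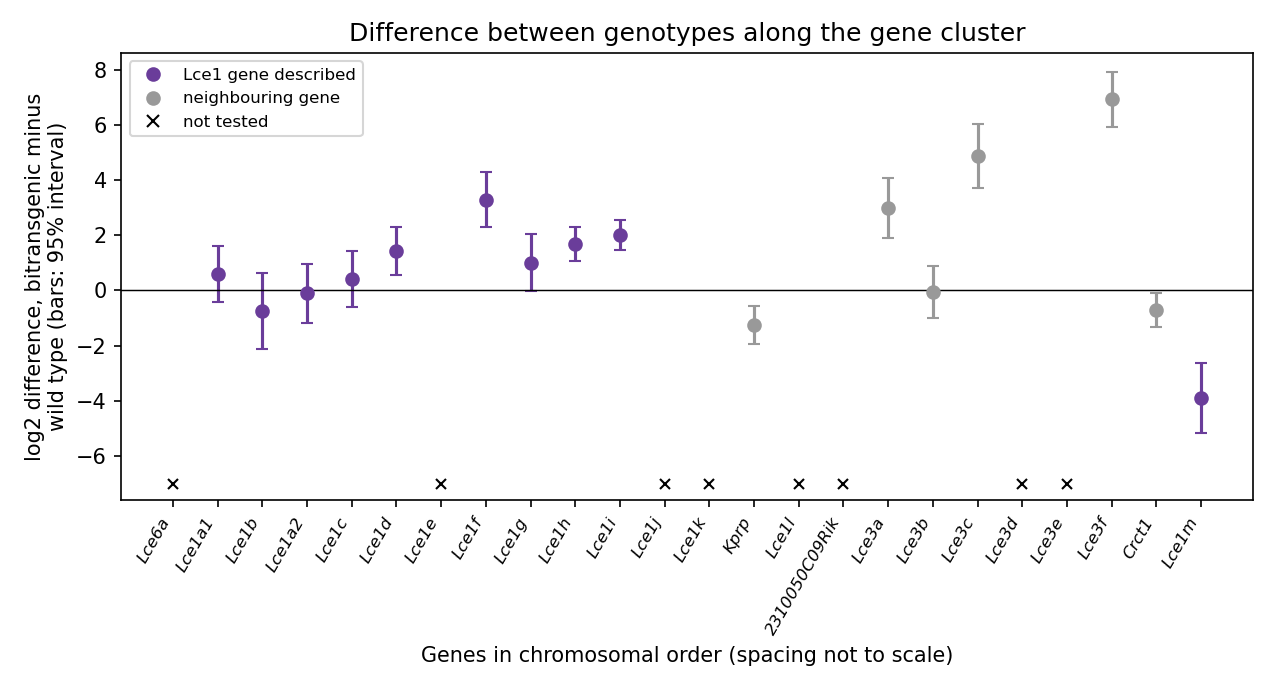
Log2 difference (bitransgenic minus wild type) with its 95% interval for the genes from Lce6a to Lce1m in chromosomal order, with equal spacing in place of distance; Lce1 genes are purple, neighbouring genes grey, and crosses mark genes that were not tested. The first 4 Lce1 genes lie between -0.74 and 0.59 with intervals that include 0. The next 5 lie between 1.0 and 3.29, where the interval of Lce1g includes 0, and Lce1m lies at -3.89. Lce1d, Lce1h and Lce1i were read by _x_at probe sets and may share signal.

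RefSeq promoters (GRCm38.p6) were at hand for 9 of the 10 genes, all but Lce1f. Over the 250 bases before the start, those of the neighbours Lce1g, Lce1h and Lce1i were 81.3% to 85.6% identical to each other. The other 25 pairs without Lce1m were 61.4% to 74.9% identical, and the 8 pairs with Lce1m 52.7% to 55.0%. The last 100 bases before the start are printed for Lce1i and Lce1h, which rose, for Lce1a2 and Lce1b, which did not pass, and for Lce1m, which fell. All 5 are on the minus strand, and capitals mark the letters ATAAAAG.
Lce1i, chr3:92778900-92778999: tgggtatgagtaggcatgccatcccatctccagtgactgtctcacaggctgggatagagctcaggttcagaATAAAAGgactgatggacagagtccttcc
Lce1h, chr3:92765066-92765165: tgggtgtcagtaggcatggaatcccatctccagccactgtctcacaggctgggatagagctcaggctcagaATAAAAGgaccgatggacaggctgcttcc
Lce1a2, chr3:92670316-92670415: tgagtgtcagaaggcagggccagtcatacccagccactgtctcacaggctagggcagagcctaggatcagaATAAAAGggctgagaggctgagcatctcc
Lce1b, chr3:92656927-92657026: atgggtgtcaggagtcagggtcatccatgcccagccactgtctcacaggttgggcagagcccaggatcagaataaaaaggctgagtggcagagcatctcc
Lce1m, chr3:93019062-93019161: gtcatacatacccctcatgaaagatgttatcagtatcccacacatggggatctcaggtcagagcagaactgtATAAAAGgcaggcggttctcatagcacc

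The letters ATAAAAG, chosen after the sequences were seen, stood at positions -29 to -23 from the start in Lce1a2, Lce1c, Lce1d, Lce1g, Lce1h and Lce1i, and at -28 to -22 in Lce1m. These are 7 of 9 member promoters, or 77.8%, beside 5.42% of 32851 RefSeq promoter windows of 300 bases. The windows run from 250 bases before to 50 after the start. Those on a single chromosome, not that of the Lce1 genes, were left out of all window counts. The letters were picked from these same, partly alike promoters, so the gap between the 2 shares tests nothing about these genes. Genes that rose, fell and did not pass all had ATAAAAG. The TATA box letters TATAAA, which overlap it in part, were found in Lce1d and Lce1m (22.2%, against 13.6% of all windows). The longer run TCAGAATAAAAGGAC stood in Lce1c, which did not pass, as well as in Lce1g, Lce1h and Lce1i, and occurs in 6 of the 32851 windows within the 250 bases before the start. This run was picked for being among the longest shared by Lce1g, Lce1h and Lce1i, so its rarity tests nothing about these genes. The 4 member promoters that hold it are among those 6 windows. Another shared run of the same length, 15 bases, stood in Lce1g, Lce1h and Lce1i but in no other member promoter, and occurs in 4 windows. The other motifs were searched on both strands of the 300 bases. CACCC, bound by Klf factors, was in 3 of 9 promoters (57.5% of all windows), and the antioxidant response element TGACNNNGC was in that of Lce1d alone (12.4%). The AP-1 letters TGANTCA, the C/EBP letters TTGCNNAA and the p53 family half-site were matched in 0 of 9, where 7.81%, 10.8% and 8.36% of all windows hold them. That says only that these letters are not in these windows.

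**Figure D3:**
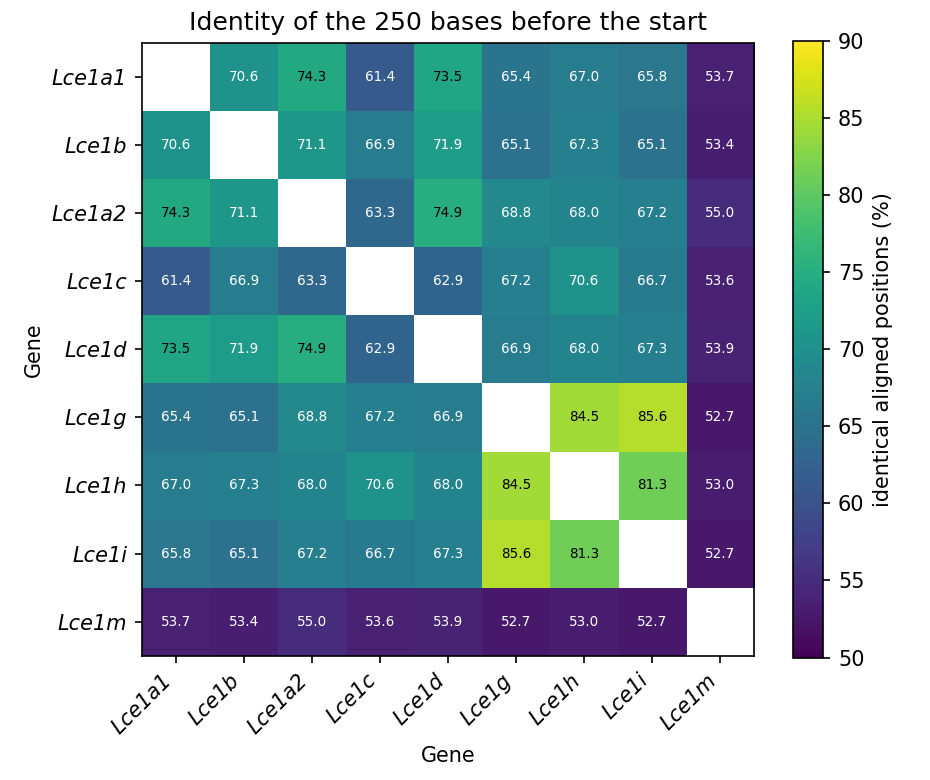
Percent of identical aligned positions between the 250 bases before the start of each pair of the 9 Lce1 genes with a RefSeq promoter, in chromosomal order, with lighter colours for higher identity. Lce1g, Lce1h and Lce1i form a block at 81.3% to 85.6%, and the row of Lce1m lies at 52.7% to 55.0%.

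Lce1f rose the most of the 10 genes, and both of its probe sets showed the rise. Its brighter probe set, 1420550_at, read 2070 and 851.8 in the wild type animals (replicate 1 first, as throughout) against 13105 and 13166 in the bitransgenic animals. The wild type arrays thus differed from each other, and the bitransgenic arrays nearly coincided well above both. Mean signals were 1461 ± 861 (SD) and 13135 ± 43.1, a 9.77-fold difference (log2 difference 3.29 ± 0.41, SE; adjusted p = 0.0174). Its dimmer probe set, 1449902_at, read 121.1 and 89.5 against 1332 and 1792, or 12.98-fold (3.70 ± 0.33). In the fit of all 45037 probe sets that are not controls, this was the 1 member probe set of 12 called higher (adjusted p = 0.0296), where 0.0444% of all probe sets were. The brighter probe set had an adjusted p of 0.0621 there. Neither carries a suffix that marks probes shared between genes. Leaving out bitransgenic replicate 1 cost the gene its call by a little (3.29, adjusted p = 0.054).

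Lce1i rose with close replicates in both genotypes. Its probe set 1420741_x_at read 1668 and 1568 in wild type against 6874 and 6320 in bitransgenic skin. The gap between genotypes was far wider than that within either, with values of 2.03 within replicate 1 and 2.0 within replicate 2. The rise was 4.05-fold, with an adjusted p of 0.0127, and the call was lost with either bitransgenic array left out (0.0793 for replicate 1, 0.0538 for replicate 2). Lce1h, its neighbour, was read by 1449959_x_at at 985.6 and 928.0 in wild type against 3587 and 2704 in bitransgenic skin. The groups did not overlap, and the rise was 3.22-fold (1.69 ± 0.26; adjusted p = 0.0304). Its call was lost too with bitransgenic replicate 1 left out (1.48, adjusted p = 0.206), with replicate 2 left out (1.89, 0.0847), and with eBayes run without its intensity trend (0.0583). In limma's fit of all probe sets neither gene's probe set was called, with an adjusted p of 0.0520 for Lce1i and 0.101 for Lce1h. The suffix _x_at marks a probe set some of whose probes can also read other, similar transcripts. The rises of Lce1h and Lce1i may therefore share signal with each other or with relatives.

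Lce1d and Lce1g had values in the same direction that did not pass. Lce1d, also read by an _x_at probe set, had signals of 1375 and 744.0 in wild type against 3250 and 2318 in bitransgenic skin. The groups did not overlap, and the log2 difference was 1.43 (95% interval 0.56 to 2.29; adjusted p = 0.113). It passed without wild type replicate 1 (1.86, adjusted p = 0.0207). Lce1g was dim, at 66.5 and 47.6 against 93.8 and 176.2, with a difference of 1.0 (-0.033 to 2.04; adjusted p = 0.316). Its wild type mean, 6.18 on the log2 scale, lay just under the filter of 6.19, so it was tested only through its bitransgenic arrays. All 12 member probe sets passed the filter, and the other 11 would have passed on the wild type arrays alone.

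Lce1m fell, alone among the 10 genes, and its mean difference was larger in size than any of the rises, although its 95% interval (-5.15 to -2.62) overlaps in size with that of Lce1f (2.29 to 4.29). Its probe set 1429565_s_at read 5853 and 3060 in wild type against 452.0 and 160.5 in bitransgenic skin. The lowest wild type signal was still several times the highest bitransgenic signal. Mean signals were 4457 ± 1975 and 306 ± 206, a 14.8-fold difference (log2 difference -3.89 ± 0.53, SE; adjusted p = 0.0214). The difference was -3.65 within replicate 1 and -4.12 within replicate 2. In the fit of all probe sets, of which 0.129% were called lower, its adjusted p was 0.0727. With each array left out in turn the gene's difference ran from -4.59 to -3.18, past the threshold each time. The suffix _s_at marks a probe set whose probes all match more than 1 transcript, which may be of 1 gene or of several.

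The remaining 4 genes, Lce1a1, Lce1a2, Lce1b and Lce1c, had groups that overlapped, and none passed. Lce1a1 read 3251 and 1620 in wild type against 4566 and 2618 in bitransgenic skin by 1420677_x_at, and its second probe set, 1420676_at, gave nearly the same difference (0.51 beside 0.59). Lce1a2 read 7058 and 2695 in wild type against 4364 and 3770 in bitransgenic skin, so the wild type arrays enclosed the bitransgenic ones. Lce1b read 3432 and 1372 against 2070 and 810.5, the lowest mean difference after that of Lce1m. Lce1c read 4260 and 1769 against 4038 and 3264. The 95% intervals of these 4 differences were -0.42 to 1.59 for Lce1a1, -1.18 to 0.97 for Lce1a2, -2.11 to 0.63 for Lce1b and -0.62 to 1.42 for Lce1c. Each interval includes 0 and leaves room for a change of 1.5-fold or more in 1 direction at least. The sign of the difference within replicate 1 and within replicate 2 was not the same for Lce1a2 (-0.69 and 0.48) and Lce1c (-0.077 and 0.88). Nothing in the labels says that equal replicate numbers pair animals.

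**Figure D4:**
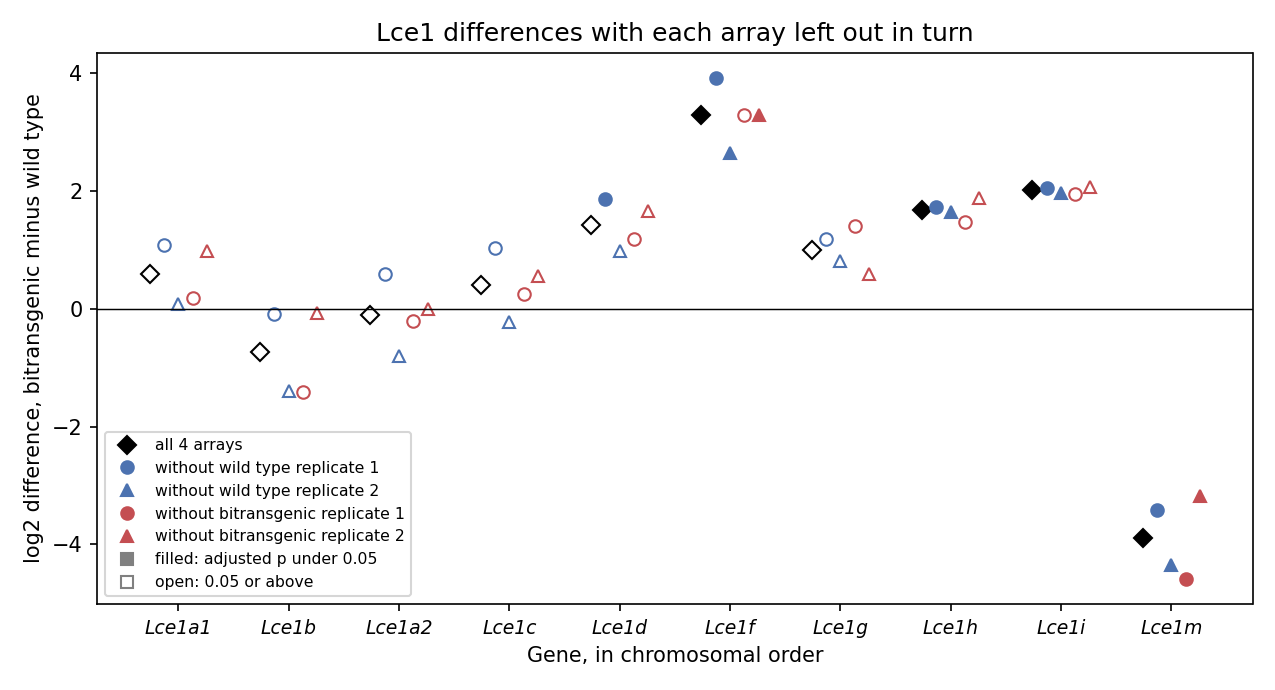
Log2 difference (bitransgenic minus wild type) of each Lce1 gene with all 4 arrays (black diamonds) and with each array left out in turn (blue for a wild type array, red for a bitransgenic array); filled symbols have an adjusted p under 0.05 and open symbols do not. Lce1m is filled throughout, Lce1f, Lce1h and Lce1i lose the call without bitransgenic replicate 1, and the values of Lce1a2 and Lce1c lie on both sides of 0.

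Lce1 signals also differed between animals of the same genotype. All 12 probe sets were higher in wild type replicate 1 than in wild type replicate 2. Over the 10 genes, the median difference between these arrays was 0.96 on the log2 scale (0.085 for Lce1h to 1.38 for Lce1a2), beside 0.013 over all genes, of which 51.0% were higher in replicate 1. Between the bitransgenic arrays, 8 of the 10 genes were higher in replicate 1, with a median of 0.36 and a range of -0.81 for Lce1g to 1.41 for Lce1m, beside a median of -0.076 over all genes, of which 42.9% were higher in replicate 1. Lce1h and Lce1i were the genes that differed least between the wild type arrays (0.085 and 0.089). Of 7 granular layer markers, 2 were higher in wild type replicate 1 than in replicate 2, and 4 were higher in bitransgenic replicate 1 than in replicate 2. Gapdh control probe sets, whose 3' signal over 5' signal reflects how intact the RNA was, gave ratios of 1.55 in wild type replicate 1 and 1.02, 0.944 and 0.931 in wild type replicate 2 and bitransgenic replicates 1 and 2. Those of beta-actin gave 1.66 and 1.53 in wild type against 1.70 and 1.54 in bitransgenic skin. The wild type arrays also differed in summed signals of some cell types. Replicates 1 and 2 gave 116496 and 47014 for skeletal muscle and 1923 and 15526 for melanocyte markers. Spinous markers were close, at 93577 and 93692. The parts of RNA integrity and of the cells sampled in these Lce1 differences were not tested.

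Other genes of the envelope and the granular layer were described from a list. Of 38 listed genes tested, 7 rose: Lce3f, Lce3c, Lce3a, the small proline-rich genes Sprr2d and Sprr2f, Flg, which codes for filaggrin, and Casp14, whose protease product helps break filaggrin down. The 3 Lce3 genes among them were tested only through their bitransgenic arrays. None fell past limma's adjusted threshold. Of all genes tested, 0.750% were called higher and 1.58% lower at that threshold. At an unadjusted p under 0.05, 11 of the 38 had higher and 10 lower values (28.9% and 26.3%, beside 6.91% and 9.76% of all genes). With wild type replicate 1 or replicate 2 left out, some listed genes did fall, but calls over all genes became more numerous too. The median of the list was 0.11. Flg read 655.3 and 605.8 in wild type against 3178 and 2489 in bitransgenic skin (2.13; adjusted p = 0.0156), and Casp14 read 370.0 and 524.4 against 2411 and 2094 (2.31; 0.0166). Without bitransgenic replicate 1 or replicate 2, 4 of the 38 rose each time, and Flg (0.115 and 0.054), Casp14 (0.112 and 0.0668) and Lce3a (0.0847 and 0.0965) missed the threshold. Lce3a also missed it with no filter (0.0525) and with a pseudocount of 1 (0.0505). Lor, the gene of loricrin, a main envelope protein, had a value of -1.15 (adjusted p = 0.247), and Ivl, the gene of involucrin, an early envelope protein, had a value of 1.35 (0.306), which passed without wild type replicate 2 (2.24, adjusted p = 0.0101).

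Among 31 regulators of late epidermal differentiation tested, Prdm1 fell, and no other passed, with Trp63 entering through its brightest probe set, 1418158_at. Thus 1 of 31 was called lower, against 1.58% of all genes, and 0 of 31 higher, against 0.750%. So few calls do not set this list apart from all genes. Prdm1 codes for Blimp1, a repressor of transcription needed for terminal differentiation in the epidermis. It read 2366 and 2653 in wild type against 921.9 and 696.0 in bitransgenic skin (-1.63; adjusted p = 0.0356). The call was lost with bitransgenic replicate 1 left out (0.116), with replicate 2 left out (0.178), with no filter (0.0509) and with eBayes run without its trend (0.0634). With a wild type array left out, some regulators did rise, and with replicate 1 of these left out more than Prdm1 fell. Calls over all genes became more numerous in these fits too. Klf4 and Grhl3, activators of barrier genes, had values of 0.37 and 0.77 (adjusted p = 0.474 and 0.23). For Trp63, the gene of the transgene, 2 of 4 probe sets were much brighter in both bitransgenic arrays, with signals of 205.7 and 837.8 against 10325 and 15247 for 1451876_a_at, and 161.3 and 473.4 against 4644 and 9920 for 1452027_a_at. The adjusted p of these was 0.0613 and 0.0591 in the fit of all probe sets, and 0.0345 and 0.0343, past the threshold, over filtered probe sets. The others, 1418158_at and 1459581_at, had differences of -0.037 and -0.33.

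Markers of several cell types differed between genotypes, those of hair among them. Of all genes tested, 0.750% were called higher and 1.58% lower. Of 10 hair shaft keratins tested, 9 fell, and their summed signal was 63593 and 111445 in wild type against 976.1 and 4806 in bitransgenic skin, with Krt86 as low as 4.90 in bitransgenic replicate 1. The sum of 8 inner root sheath genes was 116033 and 203156 against 2775 and 21277, and 1 of them, Krt72, fell. Within each genotype, which has only a single pair of arrays, the array with the higher hair sums had the lower Lce1m signal. That was not particular to Lce1m: all 12 Lce1 probe sets were lower in that wild type array. In that bitransgenic array 9 of 12 were lower. Of 7 granular layer markers, Flg and Casp14 rose, and no marker was near 0. Their summed signal was 32049 and 29099 in wild type against 23668 and 19830 in bitransgenic skin. Lor and Cdsn, neither of which passed, made up most of this sum in every array. Lor read 16101 and 8350 against 7171 and 3779, and Cdsn 11513 and 12161 against 7362 and 8195. None of 7 spinous and none of 5 basal keratinocyte markers passed limma's adjusted threshold, and their medians were 0.026 and -0.023. Of 5 skeletal muscle markers, 3 fell, with a median of -3.42. Medians were -2.12 for the companion layer, -1.37 for melanocyte, -1.28 for fat cell and -0.92 for dermal fibroblast markers, with none called. Those of the other lists lay between -0.27 for T cells and 0.58 for macrophages, again with none called. The part of these cell types in the Lce1 values was not tested.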

How the data were processed

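The deposited probe set signals are array intensities on a linear scale, and MAS5 and affy are named per the submitters' processing notes, with neither roles nor versions given in the sources used here. The 2% trimmed mean of each array was 500, so signals are relative to the rest of an array. The deposited table has signals without detection calls. Array medians lay between 97.5 and 112.8, and correlations across genotypes from 0.869 to 0.920, against 0.918 between wild type and 0.949 between bitransgenic arrays.

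Signals were turned into log2(signal + 16). Probe sets with a mean at or above the 40th percentile (6.19, a signal of 57.0) were kept (27022 of 45037 that are not controls), and the one of highest mean stood for each of 13070 genes. The test of genotype was that of limma 3.58.1 under R 4.3.3 (lmFit, eBayes with an intensity trend, Benjamini-Hochberg over all features, threshold 0.05); 95% intervals are those of this fit, with 2 residual and 4.45 prior degrees of freedom. Every probe set was also tested in an unfiltered fit. Promoters were aligned globally with Biopython 1.88.

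All 10 genes and their probe sets are named, with called genes of 2 lists (38 envelope and granular layer genes and 31 regulators tested) and Lor, Ivl, Klf4, Grhl3 and Trp63 whatever their values. Other listed neighbours were named after their values were seen. The members and lists were chosen with earlier results of these data known. Alternatives were other pseudocounts, filters, scalings, probe set rules and eBayes settings, a replicate block, and each array left out.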

Additional observations from a re-analysis of the deposited data

How the results depend on the processing

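Over the alternatives, the 10 gene differences were computed 135 times; 124 kept their direction and their side of the threshold, 6 lost the call, 2 gained it (Lce1d) and 3 changed sign, none of these past the threshold. With _x_at and _s_at probe sets left out, 1 Lce1 gene was called higher and 0 lower, since Lce1d, Lce1h, Lce1i and Lce1m then have no probe set. With 1 array left out, in 4 settings, the lone array of a group is assumed to vary like the others. Over all genes, calls became more numerous without a wild type array and fewer without a bitransgenic array. For the Lce1 genes and both lists, calls gained or lost in these settings can therefore not be read as particular to them. Over those 4 settings Lce1a2 ran from -0.80 to 0.59 (0.00022 with bitransgenic replicate 2 left out), and Lce1c from -0.23, with wild type replicate 2 left out, to 1.03.

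In the fit of all probe sets, the number of Lce1 probe sets called higher, 1 with the chosen settings, was 3 over filtered probe sets or with equal array medians, 2 with a pseudocount of 1 or quantile normalization, 0 without the trend, and 0 with any array left out. The number called lower was 1 over filtered probe sets, with equal array medians and with the block, and 0 with any array left out. Envelope genes called higher numbered 4 to 10, and lower 0 to 2, with an array left out. For regulators and Trp63, all alternatives were chosen after the data were seen. The number of regulators called higher was 1 with the mean of probe sets and 0 to 2 with an array left out. The number called lower was 0 with no filter, 0 without the trend and 0 to 2 with an array left out. The Trp63 probe set 1418158_at was 0.042 with equal array medians and ran from -0.15 to 0.076 with an array left out, and 1459581_at ran from -1.34 to 0.67. The Trp63 probe sets 1451876_a_at and 1452027_a_at passed over filtered probe sets, with equal array medians (adjusted p = 0.0441 and 0.0429) and with the block (0.00388 and 0.00124), the first also without wild type replicate 2 (0.0357) and the second also with a pseudocount of 1 (0.0493). The cause of these shifts was not tested.

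Replicate numbers are shared between genotypes, but nothing in the labels says that they pair animals. Deviations from group means had a correlation of 0.336 between arrays of the same number. With the replicate number as a block, 4 Lce1 probe sets were called higher and 1 lower, Lce1d was called higher (adjusted p = 0.0292), 3 envelope genes were called lower, Lor among them (adjusted p = 0.0239), and 2 regulators were called higher and 2 lower.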
